A study of Drosophila melanogaster with 8 samples.

Results

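The genes described here are 9 of the 11982 measured. Their transcripts were higher in female than in male white prepupae of Drosophila melanogaster, by at least 1 (log2) in both genotypes of the study. Of the 29 such genes, they are those that also met the limits on level, genotype difference and name given below. They are CG42834, CG34026, CG11911, CG15784, Acbp3, Nplp2, CG9672, CG10472 and pyd3. A gene was kept if its mean difference, female minus male, was 1 or more on the log2 scale in wild type and again in the double mutant, if its mean over the 4 females was 6 or more (log2 intensity), and if its genotype difference averaged over the sexes was under 1 in either direction. The genes dsx, Sxl and Yp1 to Yp3 and the trypsin-like genes named Jon or Try were left out by name, which removed dsx and Jon66Ci. The genes were thus chosen by their measured sex and genotype differences and their level in females, so these values are given as a description and carry no test.

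The study measured total RNA of single animals on 8 Affymetrix arrays, 2 in each of 4 groups. Wild type females and males were of the strain w1118. The mutant females and males carried mutations in both bap170 and bap180 (now polybromo), whose products are subunits particular to PBAP, one of the fly's SWI/SNF-type complexes that remodel chromatin around the ATPase Brahma. All animals were taken at puparium formation, 0 hours after puparium formation (APF). The labels name no alleles, do not say whether the mutants shared the w1118 background, and do not say how animals were sexed. RNA came from the whole animal, so that more cells of a type and more RNA per cell cannot be told apart in any value below.

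In Drosophila, sex is set in each cell by a chain of splicing decisions that runs from Sxl through tra to dsx, whose female and male proteins direct sex-specific transcription. At the white prepupal stage a pulse of ecdysone ends larval life, larval organs such as the midgut start to break down, and the larval gonads already differ between the sexes. The 9 genes cover different known roles: secreted proteases of the trypsin fold, binding of acyl-coenzyme A esters, a neuropeptide-like precursor and the breakdown of pyrimidines.

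Of the genes that check the sex labels, dsx and msl-2 separated the sexes on every array, while Sxl, Yp1 and Yp2 did not. On the probe set of higher mean of its 2, dsx read 7.06 to 7.43 (log2) in the 4 females and 3.43 to 3.55 in the 4 males. That difference was 3.71 ± 0.10 (standard error, SE; limma adjusted p = 3.62e-06). With both probe sets averaged it was 1.44, so the other probe set did not share its size. The dosage compensation gene msl-2 was lower in females by 0.91 (difference -0.91 ± 0.10, limma adjusted p = 0.00114), and tra was higher by 0.95 ± 0.14 (limma adjusted p = 0.00488). Sxl differed by 0.46 ± 0.21 and was not called (limma adjusted p = 0.221). With its 3 probe sets averaged it was called, at 0.66 (limma adjusted p = 0.0142). Yp1 (0.17 ± 0.13) and Yp2 (0.26 ± 0.14) were not called, and Yp3 was called (3.73 ± 0.52, limma adjusted p = 0.00315). Array medians lay at 4.80 to 4.87 (log2) in females and 5.05 to 5.13 in males, and over all probe sets the 2 replicates of a group correlated at r = 0.977 to 0.990. The lowest of these correlations was that of the double mutant males. Replicate 2 of that group had the lowest median of all 4 males for the testis list (5.51, against 5.65 to 6.31) and the lowest of all arrays for the fat body list (9.87, against 10.3 or more). With that array left out, the rule returned 19 genes, and all 9 genes described here were among them.

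Across the set, each gene was higher in both females than in both males within wild type and again within the double mutant. Over all genes, both females lay above both males in 37.5% of genes in wild type and in 27.6% in the double mutant. In 6 of the 9, all 4 females lay above all 4 males, which held for 7.24% of all genes. The sex difference averaged over genotypes ran from 1.05 to 2.19 (log2), with a median of 1.57 against 0.11 over all genes. By limma at an adjusted p under 0.05, 8 of the 9 were called higher in females, where 2.0% of all probe sets and 2.5% of genes were. The exception was CG34026. Since the rule used the sex differences, nothing is read from this count, from the separation of the sexes or from the median. Each of the 9 was measured by 1 probe set and each is protein coding.

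**Figure D1:**
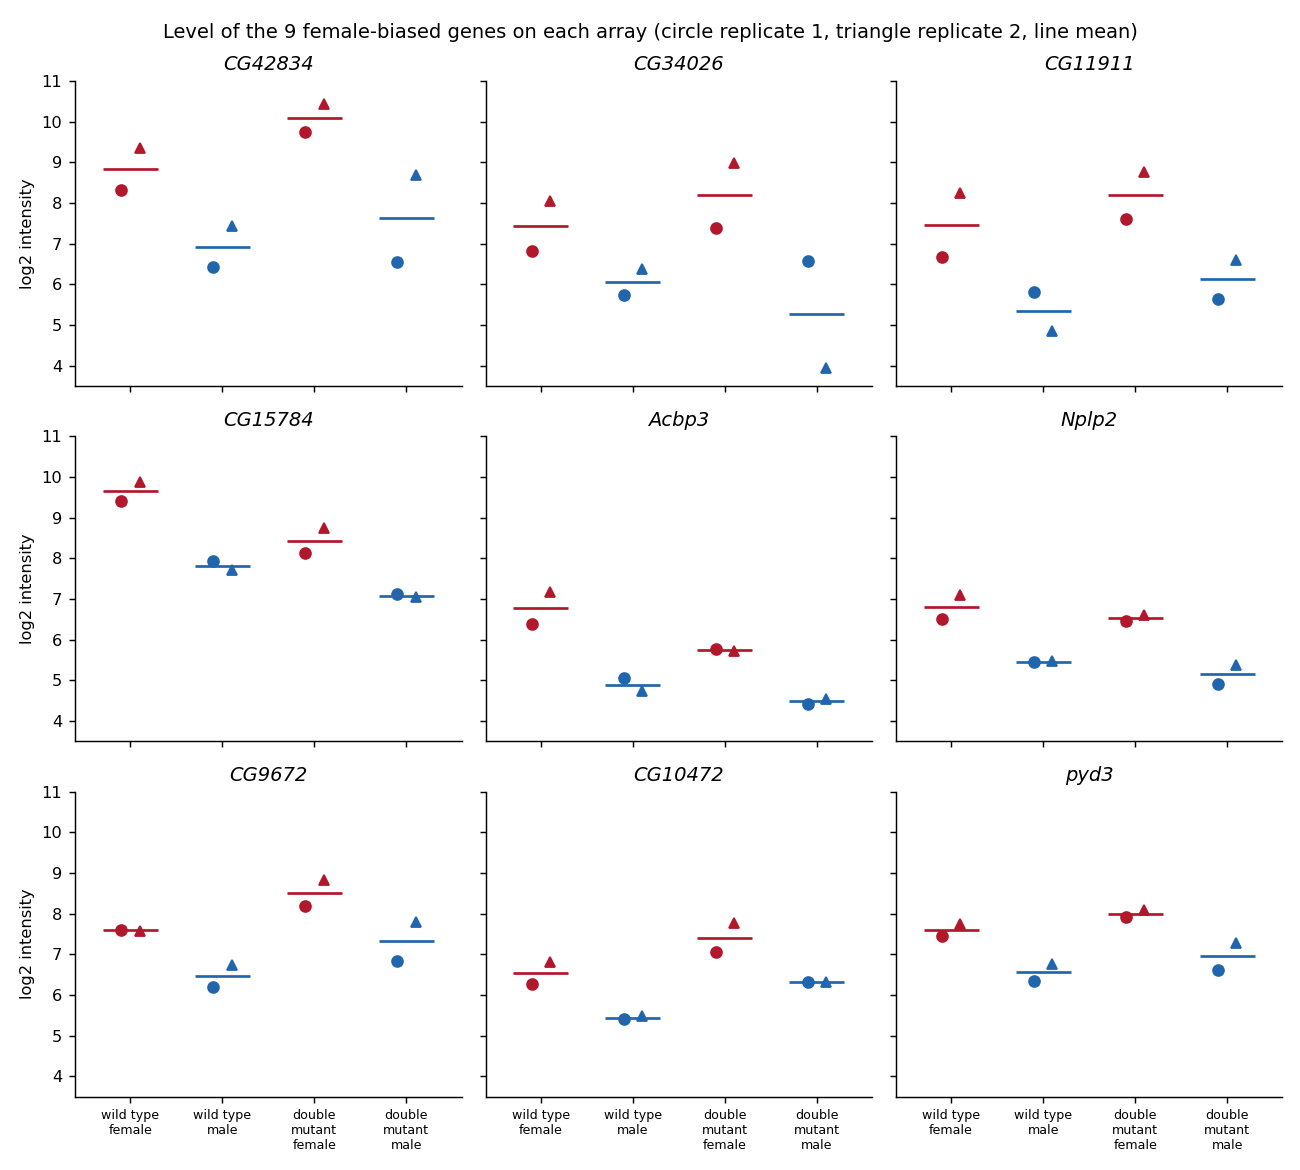
Log2 intensity of each of the 9 genes on each of the 8 arrays; each panel is 1 gene, circles are replicate 1, triangles replicate 2 and lines the means of the 2 arrays, with females in red and males in blue. Within each genotype both females lie above both males in every panel, and in CG42834, CG9672 and CG10472 some double mutant males lie above some wild type females.

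Among the 9 genes, CG11911, CG10472 and CG9672 belong to the large fly family of trypsin-like serine proteases. CG11911 and CG10472 carry protease names in the RefSeq gene table, and CG9672 the name of a serine protease homolog, a protein with the protease fold that lacks part of the catalytic site. CG11911 read 6.67 and 8.24 (log2) in wild type females, 5.82 and 4.86 in wild type males, 7.62 and 8.76 in mutant females, and 5.63 and 6.61 in mutant males. Its lowest female lay just above its highest male. The sex difference was 2.12 in wild type and 2.07 in the double mutant, a mean of 2.09 ± 0.46 (SE) or 4.26-fold. The replicates of CG11911 were far apart, by 1.57 in wild type females, so that its fold is loosely fixed.

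CG10472 read 6.26 and 6.82 in wild type females and 5.40 and 5.49 in wild type males. In the double mutant it read 7.05 and 7.76 in females and 6.31 and 6.32 in males. Both mutant males lay slightly above the lower wild type female, so the sexes overlap when genotypes are pooled and not within either. Females exceeded males by 1.10 in wild type and 1.09 in the double mutant, with a mean of 1.09 ± 0.19 (2.13-fold). CG9672 had the same arrangement at 7.61 and 7.58 in wild type females, 6.21 and 6.74 in wild type males, 8.19 and 8.83 in mutant females, and 6.85 and 7.79 in mutant males. Only the second mutant male exceeded the wild type females. Its sex difference was 1.12 in wild type and 1.20 in the double mutant (mean 1.16 ± 0.25, 2.23-fold).

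Acbp3 encodes an acyl-CoA binding protein, a small carrier of the activated fatty acids used in lipid metabolism. It read 6.38 and 7.17 in wild type females and 5.06 and 4.73 in wild type males, then 5.77 and 5.72 in mutant females and 4.42 and 4.55 in mutant males. All 4 females lay above all 4 males, and the male values were close to the array medians, with 44.8% of probe sets below the male mean. Females exceeded males by 1.88 in wild type and 1.26 in the double mutant (mean 1.57 ± 0.18, 2.97-fold).

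Nplp2 encodes a neuropeptide-like precursor whose product is also known from the hemolymph as an immune-induced peptide. It read 6.51 and 7.09 in wild type females, 5.45 and 5.47 in wild type males, 6.46 and 6.61 in mutant females, and 4.92 and 5.38 in mutant males. The gap between its lowest female and its highest male, 1.00 (log2), was the widest of the 9 genes. Females averaged 6.67 ± 0.29 and males 5.31 ± 0.26 (SD, n = 4 over both genotypes). The sex difference was 1.34 in wild type and 1.39 in the double mutant, with a mean of 1.36 ± 0.16 (2.58-fold).

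The gene pyd3 encodes beta-alanine synthase, the last enzyme of uracil breakdown, which yields the beta-alanine that the fly also uses in tanning its cuticle. It read 7.46 and 7.76 in wild type females, 6.36 and 6.76 in wild type males, 7.91 and 8.09 in mutant females, and 6.62 and 7.28 in mutant males. The sexes did not overlap, although the highest male came within 0.18 of the lowest female. Its sex difference was 1.05 in each genotype, a mean of 1.05 ± 0.18 (2.07-fold), the smallest of the set.

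CG15784, CG34026 and CG42834 are known only by their gene numbers in the sources used here, and no role is given for them. CG15784 read 9.41 and 9.88 in wild type females, 7.92 and 7.72 in wild type males, 8.12 and 8.73 in mutant females, and 7.12 and 7.04 in mutant males. All females lay above all males, although the wild type males came within 0.20 of the lower mutant female. In this gene females exceeded males by 1.82 in wild type and 1.35 in the double mutant (mean 1.58 ± 0.17, 3.0-fold).

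CG42834 showed the largest mean sex difference of the 9, 2.19 ± 0.51 (4.58-fold), with 1.92 in wild type and 2.47 in the double mutant. It read 8.33 and 9.35 in wild type females, 6.41 and 7.43 in wild type males, 9.75 and 10.44 in mutant females, and 6.56 and 8.69 in mutant males. The 2 mutant males differed by 2.12, and the higher of them exceeded one wild type female. The sex difference in the double mutant was 3.53 without the higher male and 1.41 without the lower one.

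CG34026 had the largest standard error of the set. It read 6.81 and 8.04 in wild type females, 5.75 and 6.38 in wild type males, 7.40 and 8.99 in mutant females, and 6.58 and 3.95 in mutant males. The second mutant male lay 2.63 below the first and at least 1.79 below each of the other arrays. The sex difference was 1.36 in wild type and 2.93 in the double mutant, and the latter was 1.62 with that male left out and 4.24 with the other left out. The mean was 2.14 ± 0.64 (4.42-fold).

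**Figure D2:**
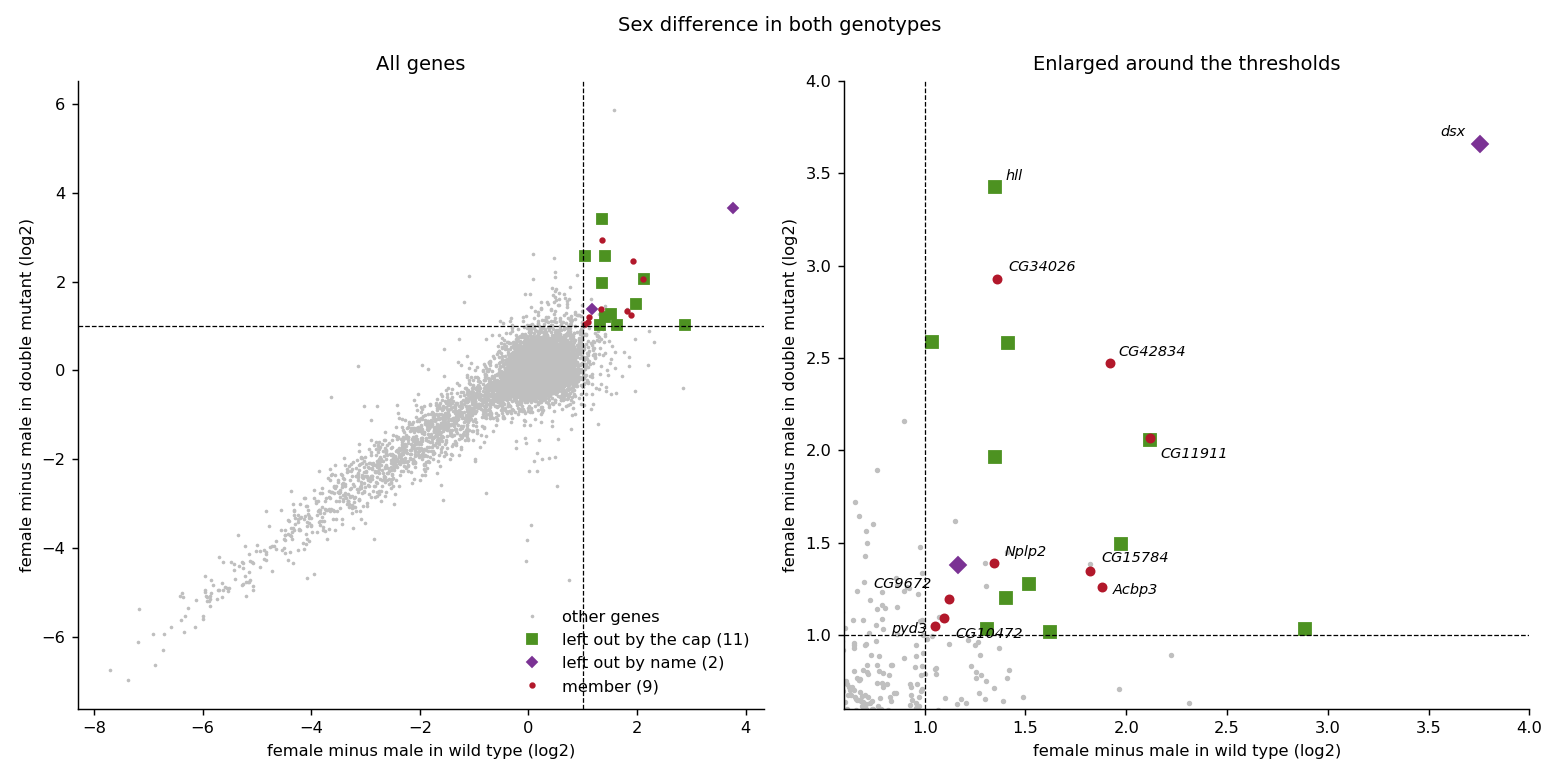
Female minus male difference (log2) in wild type (horizontal) against the double mutant (vertical), 1 point per gene, for all genes on the left and enlarged on the right; dashed lines mark the threshold of 1. The 9 genes are red circles, the 11 genes left out by the cap on the genotype difference green squares and the 2 left out by name purple diamonds; most genes with a large sex difference lie at the lower left, higher in males.

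The set is small beside its counterpart in males. A difference of 1 or more in favour of females was reached by 149 genes in wild type and 136 in the double mutant, and by 29 in both, or 0.242% of genes. In the other direction 959 genes were higher in males by 1 or more in both genotypes. Of the 29, 26 also met the minimum level in females, and 11 of these met the cap on the genotype difference before names were removed. Ranked by mean sex difference over all genes, the 9 stood at places 4, 5, 6, 14, 15, 23, 42, 55 and 72.

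Some members only just qualified. By the lower of their 2 sex differences, the nearest inside the threshold were pyd3 (1.05), CG10472 (1.09) and CG9672 (1.12), and the nearest outside were CG7763 and Kaz-m1 (0.99 each) and CG4630 (0.98). By mean level in females, Acbp3 (6.26), Nplp2 (6.67) and CG10472 (6.97) lay nearest inside, and CG17145 (5.95), CG6839 (5.67) and Lcp65Ac (5.55) nearest outside. By genotype difference, CG42834 (0.98), CG15784 (-0.98) and CG9672 (0.88) lay nearest inside the cap, and Ag5r2 (1.39), Npc2f (1.44) and CG33333 (1.55) nearest outside. When each array in turn was left out, only Acbp3 and Nplp2 met the rule every time. CG9672 dropped out for 5 of the 8 arrays, CG42834 and pyd3 for 4 each, CG15784 and CG10472 for 3 each, CG11911 for 2 and CG34026 for 1. The rule returned 18 genes without replicate 1 and 10 without replicate 2 of the wild type females, and 13 and 15 without replicate 1 and 2 of the wild type males. It returned 23 and 6 without those of the mutant females and 8 and 19 without those of the mutant males. Fewest of the 9, 4, were kept without replicate 2 of the wild type females.

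The gene hll, an acyl-CoA synthetase family gene named as a marker of this set, did not meet the rule. It read 6.15 and 6.26 in wild type females, 4.96 and 4.75 in wild type males, 8.92 and 9.09 in mutant females, and 4.77 and 6.39 in mutant males. Its sex difference of 1.35 in wild type and 3.42 in the double mutant passes the thresholds. Its genotype difference averaged over the sexes was 1.76, made up of 2.80 in females and 0.72 in males, and exceeds the cap. It entered the set under none of the scalings and left-out arrays tried, and entered only when the cap was dropped, which gave 20 genes.

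Although the cap holds the genotype difference under 1, the 9 genes split by its direction. In 5 of them, CG42834, CG11911, CG9672, CG10472 and pyd3, levels were higher in the double mutant in both sexes. CG15784, Acbp3 and Nplp2 were lower in both sexes. CG34026 was 0.77 higher in mutant females and 0.80 lower in mutant males, which leaves a mean of -0.01. The median over the 9 was 0.39, against -0.01 over all genes. The cap used this difference and the matching shares of all genes were not counted, so nothing is read from the split or the median.

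Of the 3 serine protease genes, none of which was called for the genotype effect, CG10472 was 0.87 higher in each sex, CG9672 was 0.92 higher in females and 0.84 in males, and CG11911 was 0.73 higher in females and 0.78 in males. CG42834 was 1.26 higher in mutant females and 0.70 in mutant males, and pyd3 was 0.39 higher in each sex. Among the genes with lower values, CG15784 differed by -1.22 in females and -0.74 in males, Acbp3 by -1.03 and -0.41, and Nplp2 by -0.26 and -0.31. By limma, 1 of the 9, CG15784, was called for the genotype effect, where 2.79% of all probe sets were. Nothing is read from this count, since the cap used the same contrast.

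**Figure D3:**
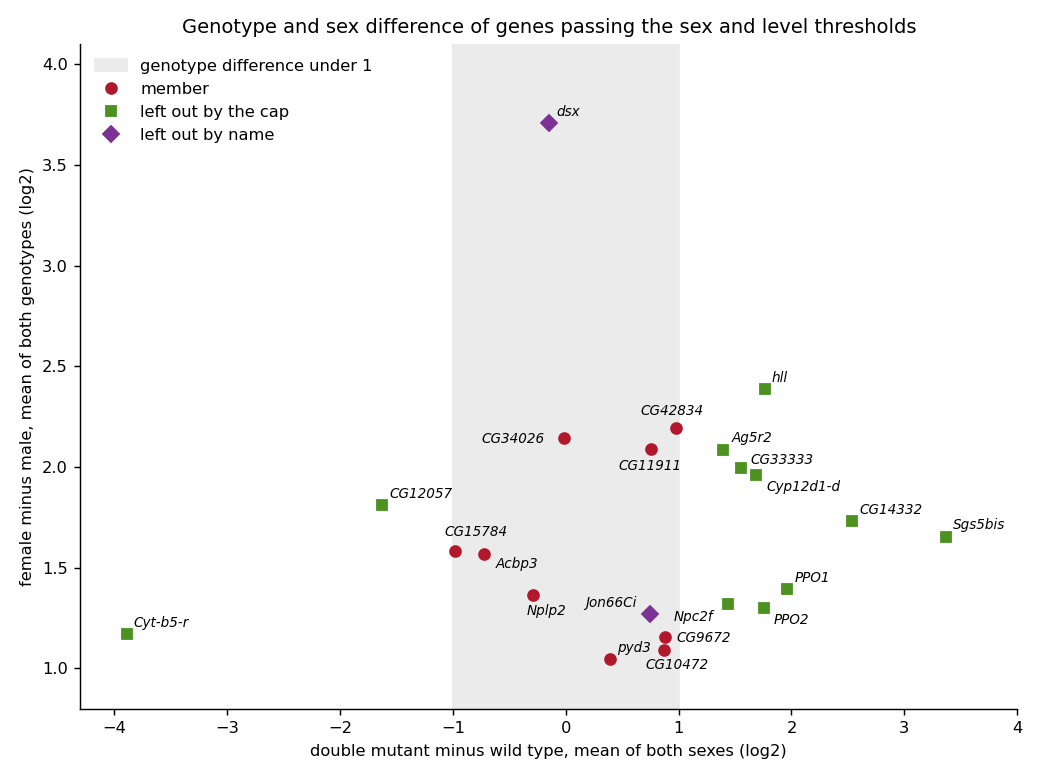
Mean female minus male difference (vertical, log2) against mean double mutant minus wild type difference (horizontal, log2) for the genes that passed the thresholds on sex and level; the grey band spans genotype differences under 1. Of the 9 genes, 5 lie right of 0 and 4 at or left of it, and hll lies outside the band at 1.76.

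The sex difference in the double mutant minus that in wild type was between -0.1 and 0.1 in 5 genes, with standard errors well above these values. It was -0.05 ± 0.91 (SE) for CG11911, 0.04 ± 0.33 for Nplp2, 0.07 ± 0.50 for CG9672, -0.01 ± 0.38 for CG10472 and -0.00 ± 0.36 for pyd3. The change was -0.62 ± 0.37 for Acbp3, -0.48 ± 0.34 for CG15784, 0.55 ± 1.01 for CG42834 and 1.57 ± 1.28 for CG34026. The rule had already asked for a sex difference of at least 1 in both genotypes. By limma, 0 of the 9 and 0.0% of all probe sets were called for the genotype by sex interaction, while 6.31% of probe sets had an unadjusted p under 0.05. With a variance trend limma called 5 probe sets, and without the second double mutant male it called 20.

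Replicates of these genes were further apart than those of most genes. The residual standard deviation was 0.27 to 1.19 (log2) in the 9, with a median of 0.32, and all 9 exceeded the median of 0.21 over all genes. Replicates differed by over 0.5 in 6 of the 9 genes in wild type females, 4 in wild type males, 6 in mutant females and 5 in mutant males. Over all genes these shares were 9.88%, 23.2%, 14.9% and 17.3%. The rule asked for a mean of 6 or more in females, above every array median. All genes were not matched to the 9 for level, so these comparisons do not separate spread from level. Replicate 2 read higher than replicate 1 for 8 of the 9 in wild type females and for 8 in mutant females, where 52.8% and 60.4% of genes did so. In males it read higher for 6 of 9 in wild type and 7 of 9 in the double mutant, against 57.8% and 48.8% of genes. So several of the 9 were high together in one animal of a group, as CG11911, CG34026 and CG42834 were in replicate 2 of both female groups. What sets these animals apart was not tested.

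**Figure D4:**
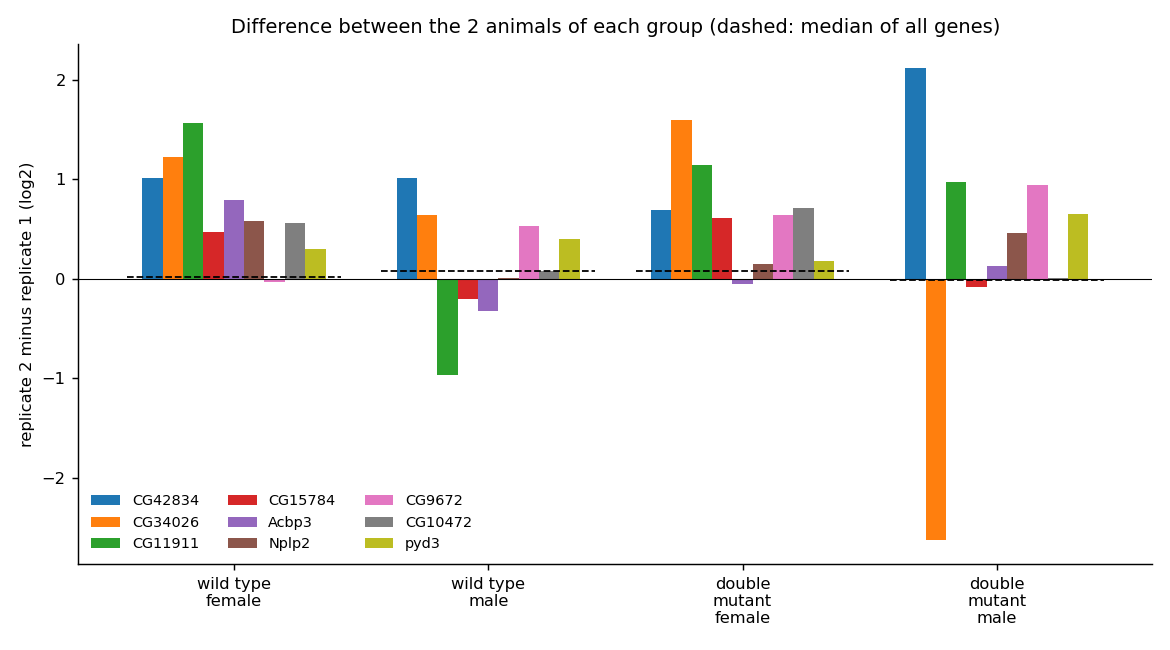
Replicate 2 minus replicate 1 (log2) in each of the 4 groups for the 9 genes, each bar a gene. Dashed lines are the medians of all genes. In both female groups 8 of the 9 lie above 0; the lowest bar, at -2.63, is CG34026 in mutant males.

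The 9 genes lie on 4 chromosome arms: CG34026, CG15784 and CG9672 on the X, CG11911 on 2L, Acbp3, Nplp2 and CG10472 on 3L, and CG42834 and pyd3 on 3R. None lies on 2R or 4. The X holds 15.7% of the 11893 genes with a known arm, 2L 18.5%, 2R 20.4%, 3L 19.7% and 3R 25.0%. With only 9 genes, nothing is read from their places. No member lies within 5 genes of another.

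Neighbouring genes were read in the gene order of the Release 6 RefSeq annotation, 5 on each side of each member, of which 67 were measured. They were picked by position, so the limma sex effect is given, except for CG33333 and CG14332, which passed the thresholds of the rule on sex and level. Of the 67, these 2 included, 8 were called higher in females and 7 lower, where 2.5% and 11.4% of all genes were, with a median of 0.18 against 0.11 over all genes. Those named below were picked after their values were seen.

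CG42834 had female-high genes on both sides. CG33333, 2 places before it, was higher in females by 2.0 ± 0.41 and CG14332, 2 places after, by 1.73 ± 0.36. Both were at least 1 higher in females in each genotype and were kept out of the set by the cap. Next to them, cysu was higher by 0.68 ± 0.15 (limma adjusted p = 0.0264), with 1.47 in wild type and -0.10 in the double mutant. CG33333 read 8.02 and 7.79 in wild type females, 6.02 and 6.96 in wild type males, 9.55 and 10.52 in mutant females, and 6.64 and 8.27 in mutant males, the same order of arrays within groups as CG42834 except in wild type females. The calls of all 3 ended when certain single arrays were left out, with a limma adjusted p up to 0.105 for cysu.

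CG9672 lies in a run of serine protease homologs. CG4653, next to it, was higher in females by 1.03 ± 0.16 (limma adjusted p = 0.00524), and CG9673, beyond that, by 0.95 ± 0.20 (limma adjusted p = 0.0231, up to 0.0859 with an array left out). The next, sphe, differed by 0.46 ± 0.12 and was not called (limma adjusted p = 0.0577). Beyond sphe, CG9676 differed by 0.21 ± 0.17 and was not called (limma adjusted p = 0.453). On the other side CG13008 was lower in females by 1.55 (difference -1.55 ± 0.15, limma adjusted p = 0.000411).

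CG11911 sits between the protease gene CG11912 and the protease homolog gene CG33127. CG11912 differed by 0.12 ± 0.09 and was not called (limma adjusted p = 0.424), and CG33127 was higher in females by 0.48 ± 0.10 (limma adjusted p = 0.0275, up to 0.109 with an array left out). Near CG10472, Jon65Aii (0.26 ± 0.11), Jon65Ai (-0.06 ± 0.13) and CG6592 (0.30 ± 0.12) were not called. On its other side CG6602 was called higher in females, by 0.45 ± 0.10 (limma adjusted p = 0.0291). Acbp3 lies among other acyl-CoA binding protein genes. Of these Acbp6 was higher by 1.03 ± 0.12 (limma adjusted p = 0.00137), while Acbp4 (0.15 ± 0.12) and Acbp2 (0.19 ± 0.34) were not called. Genes strongly higher in males also lay next to members. For example, CG10919, beside pyd3, differed by -3.58 ± 0.22 (limma adjusted p = 5.87e-05), and CG14113, near Nplp2, by -3.43 ± 0.21 (limma adjusted p = 5.54e-05).

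**Figure D5:**
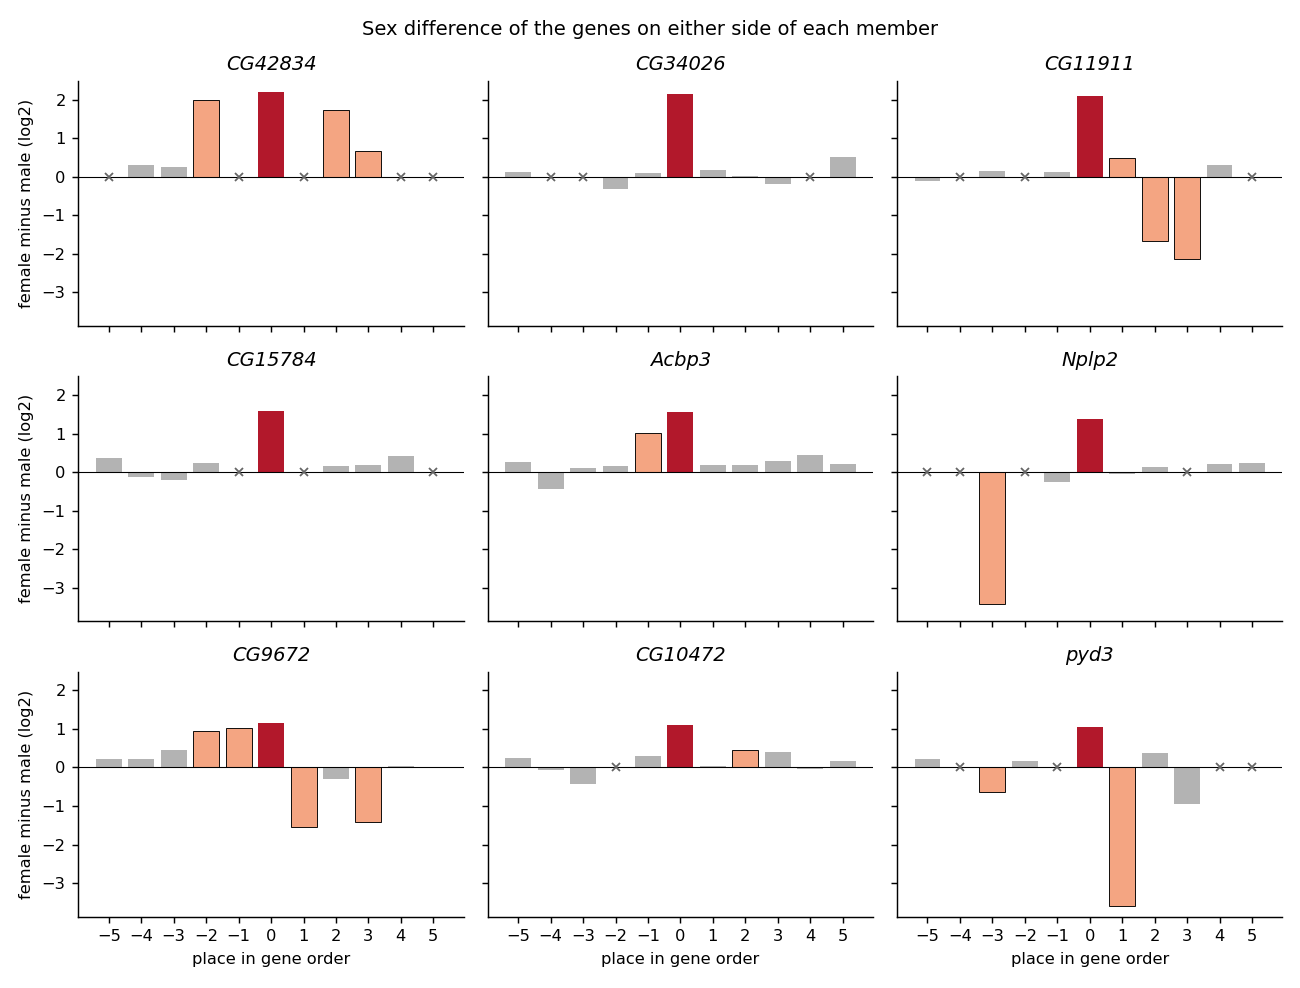
Mean female minus male difference (log2) of the genes at 5 places before and after each of the 9 genes in gene order; red is the gene itself, outlined orange bars are neighbours called by limma at an adjusted p under 0.05, grey bars were not called and crosses mark places not measured. The panel of CG42834 shows CG33333 at 2.0 and CG14332 at 1.73 on either side of it.

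The protease family was then counted as a whole, a family chosen after values were seen. Of 236 other measured genes with a protease or homolog number in the RefSeq table, 16 were called higher in females and 5 lower by limma, where 2.5% and 11.4% of all genes were, with a median of 0.21 against 0.11 over all genes. The trypsin-like genes named Jon or Try, which were left out of the set by name, are known as digestive enzymes of the gut. Of 22 measured, 7 were called higher in females and 0 lower, against the same 2.5% and 11.4% of all genes, with a median of 0.46. All 7 are also among the 16 above, so the 2 counts are not separate. The neighbours CG4653, CG9673 and CG33127 are among the 16 too. Jon66Ci, which met the thresholds of the rule, was higher by 1.27 ± 0.16. Outside this naming group CG18180, also among the 16, was higher by 1.10 ± 0.12 (limma adjusted p = 0.000732). The median level of the Jon and Try genes was 9.21 and 9.08 in wild type females, 7.84 and 8.60 in wild type males, 9.54 and 10.06 in mutant females, and 8.60 and 9.10 in mutant males. Over these genes the median of replicate 2 minus replicate 1 was 0.12 in wild type females, -0.05 in wild type males, 0.28 in mutant females and 0.29 in mutant males.

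In the other small families the sex difference was not shared throughout. Of the 5 other acyl-CoA binding protein genes measured, Acbp6 and Acbp5 were called, the latter at 0.84 ± 0.15 (limma adjusted p = 0.0134, up to 0.0605 with an array left out), and Acbp1 differed by 0.06. None of Nplp1 (0.29), Nplp3 (0.18) and Nplp4 (0.50) was called. Of the other genes of uracil breakdown and beta-alanine use, su(r) (-0.00), CRMP (0.16), e (-0.23) and t (0.89) were not called.

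None of the 9 genes belongs to any of 18 gene lists for tissues and pathways of the prepupa. Of the 349 listed genes measured, limma called 19 higher in females and 35 lower, beside 2.5% and 11.4% of all genes. Of the lower ones, 27 belong to the testis and spermatocyte list (34 measured, median -2.03). That list read 4.05 to 4.12 (median log2 of its genes) in females and 5.51 to 6.31 in males. The list of midgut carbohydrate and lipid digestion had the most calls in favour of females, 6 of 23, with a median of 0.48. Among them the sterol-binding protein gene Npc2d was higher by 1.01 ± 0.17 (limma adjusted p = 0.00861) and the maltase gene Mal-A8 by 1.33 ± 0.26 (limma adjusted p = 0.0172, up to 0.0738 with an array left out). Its array medians were 6.16 and 5.99 in wild type females, 5.26 and 5.72 in wild type males, 6.45 and 6.99 in mutant females, and 6.56 and 5.60 in mutant males, so that the sexes overlapped. The part of midgut amount in the values of the 9 genes was not tested.

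The same shares of all genes, 2.5% higher and 11.4% lower, and the median of 0.11 over all genes stand beside the remaining lists. Cytochrome P450 and detoxification genes had 4 of 41 called higher and 0 lower (median 0.32), with Cyp4d1 higher by 1.17 ± 0.21 (limma adjusted p = 0.0117, and 0.053 without replicate 2 of the mutant females). In the cuticle list 2 of 23 were higher, with Lcp65Ac, which met the threshold of the rule on sex, at 1.08 ± 0.14. The lists for lipid metabolism (2 higher, 1 lower of 26), peritrophic matrix (1 of 16 higher), Malpighian tubule (1 higher and 1 lower of 15, Irk3 at 0.76 ± 0.09, limma adjusted p = 0.00111), salivary glue (1 of 20 higher), yolk protein (1 of 3 higher) and sex determination (2 higher and 1 lower of 16) had few calls. No gene was called higher in the lists for female germline (4 of 26 lower, median 0.01), fat body (15 measured), cell cycle (1 of 21 lower), ecdysone response (21 measured), antimicrobial genes (11), hemocytes (15), larval muscle (13) or neurons (16). The medians of these 8 lists lay between 0.01 and 0.38.

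How the arrays were scaled moved every sex difference. With each array centred on its median, the median female minus male difference of all genes went from 0.11 to 0.38, and the calls went from 376 higher and 1518 lower in females to 11078 higher and 1444 lower. Quantile normalization left the median at 0.10 and gave 1890 higher and 1586 lower. The median of the 9 genes was 1.57 as deposited, 1.84 centred and 1.61 after quantile normalization. Centring kept all 9 in the set and added genes up to 52. Quantile normalization gave 28, with 8 of the 9 and without CG15784. Under these scalings the median of the female germline list was 0.27 and -0.06, so its sign is not fixed.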

How the data were processed

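Total RNA of 8 single white prepupae was hybridised to Affymetrix arrays. The deposited values are intensities on a linear scale, made with RMA per the submitters' processing notes. The software, its version and the genome build, like any scaling after RMA, were not given in the sources used here; the array medians differ between the sexes, so scaling can move every sex difference. After log2 transformation of 18952 probe sets, 183 controls were dropped. Of the 18769 tested, 13647 had 1 gene symbol in the platform annotation, 402 had several and 4720 none. For each of the 11982 genes the probe set of highest mean was kept, and 11893 genes matched the Release 6 RefSeq table, used for names, chromosome arms and gene order.

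The fit was limma 3.58.1 (R 4.3.3) by lmFit and eBayes on 4 group means, with 4 residual and 3.03 prior degrees of freedom and Benjamini-Hochberg adjustment over all 18769 probe sets at 0.05. The sex effect is female minus male averaged over genotypes. Errors are standard errors unless named SD. The number of arrays limits the precision, and p-values reflect the spread between single animals. The members and lists, the families and the neighbours were chosen with earlier results of these data known. Every member is named. Of other genes, the rule named hll, the genes that check sex, up to 3 genes of each list with the lowest p and the genes nearest each threshold, and neighbours and families were added after their values were seen.

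On simulated data with the sex effect added to some of 18769 probe sets, limma found 12% of those changed by 0.5 (log2), 86% at a change of 1 and 100% at 2, with 6.29% false calls. The simulated arrays had independent noise and no shift between the sexes, unlike the real array medians, so these rates need not hold for the data. The labels give both replicate numbers in every group but no shared animal. The deviations of replicates correlated between groups at -0.30 to 0.41, so the numbers were not taken to pair the samples. Alternatives changed scaling, the filter on dim probe sets, the variance trend, the probe set per gene, the replicate block, the thresholds of the rule and the arrays used.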

Additional observations from a re-analysis of the deposited data

How the results depend on the processing

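The set of 9 genes changed size with scaling, with 52 genes after centring each array on its median and 28 after quantile normalization, and ranged from 6 to 23 genes with 1 array left out. It held 35 genes at a minimum sex difference of 0.8, 2 (CG42834 and CG11911) at 1.5, and 20 with no cap on the genotype difference. A filter on dim probe sets and the mean over probe sets each left 9, while dropping the level minimum gave 12 and raising it to 7 gave 6. The sex effect, with 1894 probe sets called, gave 12522 after centring, 3476 after quantile normalization, 1179 among probe sets with a mean of at least 5 (fewer tested) and 1418 to 1843 with an array left out. The genotype effect (524) gave 247 to 488 with an array left out. The interaction (0) gave 5 with a variance trend and 0 to 20 with an array left out. Calls among listed genes (54) went to 215 after centring and 39 to 55 with an array left out. Among the 9 genes the mean sex difference ranged most widely over these alternatives in CG34026 (1.49 to 2.80). For 26 of the other genes named, 363 values gave 32 lost calls, all with a single array left out, and 3 gained calls (CG11912 and Sxl). The cause of these changes was not tested. The replicate number as a block gave 1846 calls for the sex effect, 447 for the genotype effect, 0 for the interaction and 53 among listed genes, and changed no other call. The deposited values give no background, so no limit from signal over background can be stated.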

Other observations

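The 11 genes that met every part of the rule except the cap on the genotype difference were higher in the double mutant in 9 cases and lower in 2. The matching shares of all genes were not counted, so nothing is read from this split. Of these 11 genes, Npc2f, CG33333, Cyp12d1-d, PPO1 and PPO2, all higher in the double mutant, were not called for the genotype effect by limma. The prophenoloxidase genes PPO1 and PPO2, whose enzymes make melanin, were among the 11. PPO1 read 9.39 and 6.81 (log2) in wild type females, 6.54 and 6.63 in wild type males, 10.23 and 9.65 in mutant females, and 8.40 and 8.93 in mutant males. PPO2 read 10.10 and 7.96 in wild type females, 7.61 and 7.65 in wild type males, 10.84 and 10.54 in mutant females, and 9.32 and 9.67 in mutant males. In wild type both rested on replicate 1 of the females, which stood 2.59 (PPO1) and 2.14 (PPO2) above replicate 2. The glue gene Sgs5bis showed the same animal apart, at 8.37 against 5.74 in the second wild type female and 5.81 and 5.60 in the males.

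Ag5r2, an antigen 5-related gene, had a sex difference of 2.12 in wild type and 2.06 in the double mutant, with levels of 8.54 and 8.64 in wild type females against 6.59 and 6.36 in the males. The 2 genes lower in the double mutant were Cyt-b5-r, with a genotype difference of -3.89, and CG12057, with -1.63. The sex difference of Cyp12d1-d in wild type, 2.89, rested on a single male at 3.88, where the other read 9.35. Yp3, a yolk protein gene, read 7.42 and 4.70 in wild type females and 10.38 and 10.30 in mutant females, against 4.42 to 4.53 in all 4 males.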
